A study of Homo sapiens with 14 samples.

Results

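The genes described here are 39 genes of the hypoxia response and of glycolysis, taken by symbol from the count tables of human pluripotent stem cells and of neural cultures made from them by a midbrain floor plate protocol. All 39 were found once each among the 57445 gene entries of those tables. The cells are H9 (WA-09), an established human embryonic stem cell line, so every group stands on 1 line. The hPSC group holds 2 libraries of undifferentiated cells at day 0, grown in Essential 8 medium on vitronectin. The other 4 groups are day 11 cultures, with 2 libraries each. All of them received SHH C25II, LDN, SB431542, Rock inhibitor and 0.7 µM CHIR99021, a GSK3 inhibitor that activates WNT signalling, from day 0. From day 4 the CHIR99021 concentration was 0.7, 3, 5 or 7.5 µM until day 10, per the sample labels. The series text differs from the labels on the last day of this step and on a later time point. From day 10 every culture received BDNF, ascorbic acid, GDNF, TGFβ3, dibutyryl cAMP and 3 µM CHIR99021. The 0.7 µM arm is therefore not free of CHIR99021, and it too had 3 µM for its last day. The labels do not say whether libraries of a group came from separate cultures, so p-values measure the spread between these libraries. Oxygen levels are not given in the labels.

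Cells sense oxygen through prolyl hydroxylases of the EGLN family, which mark the HIF alpha subunits for destruction through VHL when oxygen is present. When the hydroxylases are less active, HIF accumulates, pairs with ARNT and binds a short core sequence near its target genes. Those targets include glucose transporters, nearly every enzyme of glycolysis, the lactate exporter, the kinase that keeps pyruvate out of mitochondria, and secreted signals such as VEGFA. Pluripotent cells and neural progenitors in culture are known to use glycolysis heavily, and growth signals, MYC and glucose supply also set many of the same genes.

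Sequencing depth was 20.52 to 44.76 M counts in genes at day 11 and 25.06 and 32.29 M in hPSCs. The day 11 libraries labelled replicate 1 share 1 leading code in their description labels, those labelled replicate 2 share another, and the hPSC libraries carry others. Replicate 1 at 0.7, 3 and 5 µM stood apart from the other 7 libraries. Ribosomal protein genes took 14.38%, 18.49% and 16.66% of gene counts there against 3.42% to 7.3% elsewhere. Reads in no annotated feature were 6.88% to 7.96% there, 10.05% in replicate 1 at 7.5 µM and 13.04% to 16.42% in the remaining libraries. The comparisons of 7.5 µM with 5 and 0.7 µM and of day 11 with hPSCs are also given without these 3 libraries. The split of the variation, the comparisons among lower concentrations and the change of the replicate difference use them throughout. Of the markers checked, the pluripotency gene POU5F1 was at 412 and 474 CPM (counts per 1000000 gene counts, scaled by the trimmed mean of M-values) in hPSCs and at most 1.73 CPM at day 11. LIN28A, also a marker of pluripotent cells, was at 1200.3 and 1679 CPM in hPSCs and stayed at 1130.2 to 1995 CPM at day 11, and DPPA4 went from 1325 and 1538 CPM to 38.5 to 104 CPM. FOXA2, a floor plate regulator, was at most 0.496 CPM in hPSCs and 53.0 to 216 CPM at day 11.

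Promoter windows are shown because HIF binds a short core sequence near its target genes. The members were taken as hypoxia response and glycolysis genes, so a high share of matches can come with that choice. Whether matches go with the drop at 7.5 µM was not tested. Windows of 250 bases before a RefSeq gene start (GRCh38.p14) were listed for 35 of the 39 genes, 64 windows in all; NDRG1, SLC2A3, VEGFA and BNIP3L were not matched. The HIF core was searched on both strands as ACGTG and as GCGTG; in CACGTG both strands match and overlap. At least 1 ACGTG lay in 30 of the 64 windows (46.9%) and in 18.5% of all 35116 windows. GCGTG lay in 29 of the 64 (45.3%) and in 32.2% of all windows. These are matches of letters, not measured binding. The 6 windows below are shown with matches in capitals, 5′ to 3′ on the gene's strand. ANKRD37, ENO2, ALDOC and PGK1 were lower at 7.5 than at 5 µM, EGLN3 was lower without a match in its window, and HK2 differed most between replicate numbers of the enzymes. ANKRD37 (chr4:185396591-185396840, plus strand) held 3 ACGTG matches, EGLN3 (chr14:33951075-33951324, minus strand) none of either kind, and ENO2 (chr12:6914330-6914579, plus strand) 1 ACGTG. ALDOC (chr17:28576896-28577145, minus strand) held 3 ACGTG and 2 GCGTG matches. PGK1 (chrX:78103998-78104247, plus strand) held 2 ACGTG and 1 GCGTG. The window of HK2 with more matches, of its 2 (chr2:74834920-74835169, plus strand), held 4 ACGTG and 2 GCGTG.
ANKRD37: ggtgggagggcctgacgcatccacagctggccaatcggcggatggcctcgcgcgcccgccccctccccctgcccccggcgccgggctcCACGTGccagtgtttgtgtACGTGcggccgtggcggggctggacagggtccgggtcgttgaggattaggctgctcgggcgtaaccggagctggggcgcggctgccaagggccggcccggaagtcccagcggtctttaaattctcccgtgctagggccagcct
EGLN3: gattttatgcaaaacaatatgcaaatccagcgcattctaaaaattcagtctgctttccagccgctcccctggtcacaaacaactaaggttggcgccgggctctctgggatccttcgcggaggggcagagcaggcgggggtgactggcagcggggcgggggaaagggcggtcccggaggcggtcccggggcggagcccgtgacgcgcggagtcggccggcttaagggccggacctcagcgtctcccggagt
ENO2: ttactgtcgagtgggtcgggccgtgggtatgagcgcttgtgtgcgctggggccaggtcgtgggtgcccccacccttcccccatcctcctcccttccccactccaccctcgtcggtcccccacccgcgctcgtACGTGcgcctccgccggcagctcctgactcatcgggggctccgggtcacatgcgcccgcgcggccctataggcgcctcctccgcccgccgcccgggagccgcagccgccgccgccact
ALDOC: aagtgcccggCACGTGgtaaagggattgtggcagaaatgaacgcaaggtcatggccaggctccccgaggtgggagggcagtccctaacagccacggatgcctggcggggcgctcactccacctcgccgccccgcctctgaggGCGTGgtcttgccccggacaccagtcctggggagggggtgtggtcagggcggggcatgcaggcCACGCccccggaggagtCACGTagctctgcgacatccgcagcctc
PGK1: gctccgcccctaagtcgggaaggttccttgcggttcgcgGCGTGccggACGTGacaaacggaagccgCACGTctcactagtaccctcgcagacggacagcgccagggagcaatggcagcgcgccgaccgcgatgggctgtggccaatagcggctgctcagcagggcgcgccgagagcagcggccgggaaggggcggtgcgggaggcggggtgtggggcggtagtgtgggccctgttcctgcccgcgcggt
HK2: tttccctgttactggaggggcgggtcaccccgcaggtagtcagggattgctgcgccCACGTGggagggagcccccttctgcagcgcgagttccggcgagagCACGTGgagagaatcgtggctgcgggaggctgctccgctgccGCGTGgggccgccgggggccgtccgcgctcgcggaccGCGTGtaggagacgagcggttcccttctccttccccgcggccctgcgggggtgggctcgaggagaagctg

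Replicate number and CHIR99021 concentration were both tied to the level of these genes, so their shares were separated first. Over the 8 day 11 libraries, the sum of squares of log2(CPM + 0.5) was split between concentration, replicate number and the rest. Concentration has more levels than replicate number, so a larger share would fall to it even with no effect of either. The shares are therefore not on an equal footing and are given beside those of all genes tested. In the 24 members that are not glycolytic enzymes, replicate number took a median of 61.7% and concentration 32.5%. In the 15 enzymes the order was the opposite, with 22.2% for replicate number and 72.5% for concentration. The medians over all 18709 genes tested were 48.2% and 33.0%. Replicate number took the larger share in 17 of the 39 members, 16 of them outside the enzymes, against 56.9% of all genes tested. GPI, the second enzyme of glycolysis, stood at one end with 97.8% for concentration. INSIG2, a regulator of sterol synthesis, stood at the other with 93.7% for replicate number.

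**Figure D1:**
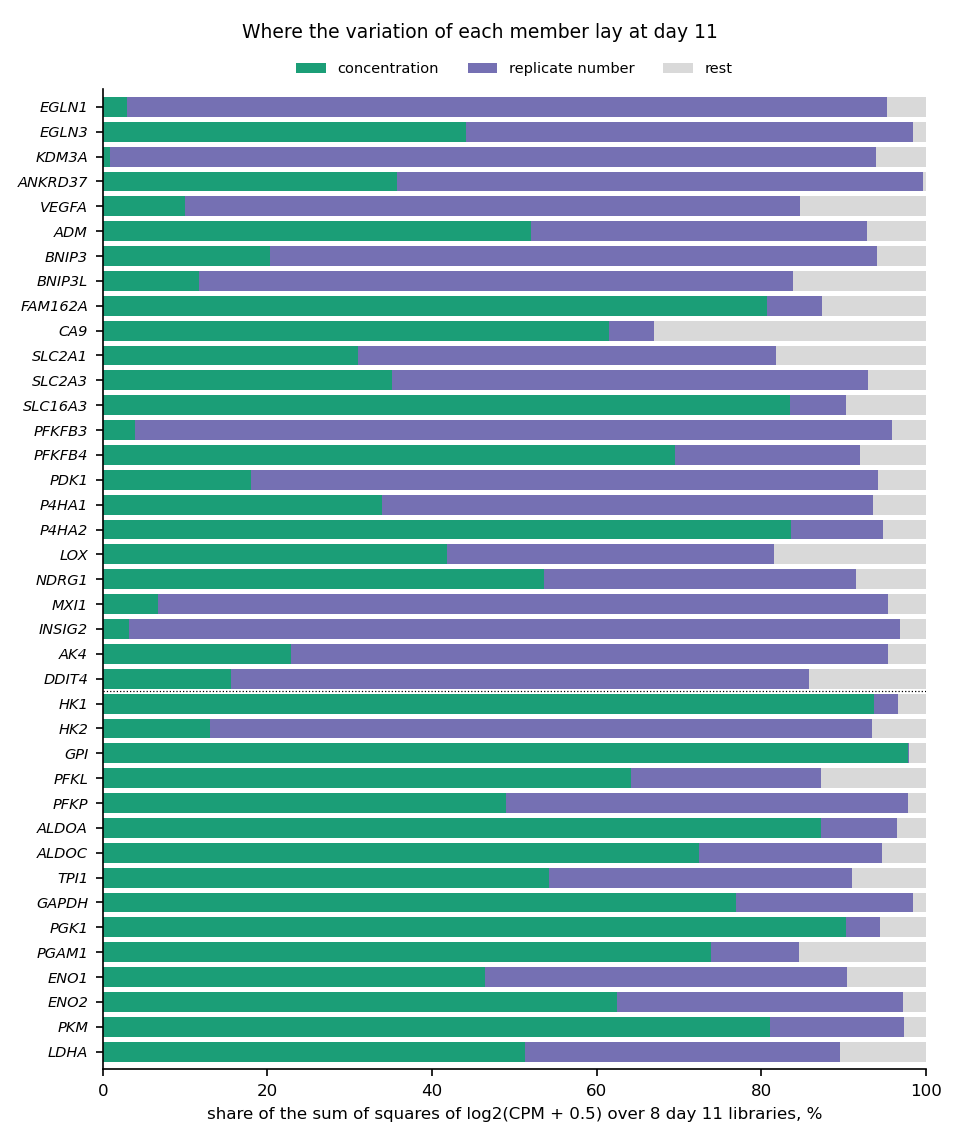
Share of each member's variation over the 8 day 11 libraries, in percent of the sum of squares of log2(CPM + 0.5), that lay between CHIR99021 concentrations (green), between replicate numbers (purple) and in the rest (grey). Members below the dotted line are the 15 glycolytic enzymes, in which the green part had a median of 72.5%; above it the median was 32.5%.

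Most HIF targets outside glycolysis were higher in replicate 2 than in replicate 1, by amounts that varied with concentration, while the enzymes were split. With concentration in the model, 25 of the 39 members were higher in replicate 2 and 5 were lower (edgeR quasi-likelihood test, Benjamini-Hochberg adjusted p under 0.05 over 18709 genes). The background is large: 28.7% of all genes tested were higher and 26.9% lower. The members' median log2 difference was 0.96 and that of all genes tested 0.02. Of the 24 members outside the enzymes, 21 were higher and none was lower. Of the 15 enzymes, 4 were higher (HK2, PFKP, ENO2 and LDHA), 5 were lower (PFKL, ALDOC, TPI1, GAPDH and ENO1) and 6 did not pass. In 13 members all replicate 2 libraries lay above all replicate 1 libraries, against 19.2% of all genes tested. No member showed the reverse, against 3179 of the 18709 genes tested. The 5 calls of lower enzymes rested on few libraries: ALDOC alone was called without any 1 of the 0.7 and 5 µM libraries, and none was called without either 3 µM library. The 3 libraries of high ribosomal protein share are all replicate 1, so the replicate difference was also taken at 7.5 µM alone. There replicate 2 was above replicate 1 in 32 of 39 members, against 48.9% of all genes tested, from 1 library each, with a median log2 difference of 1.30 outside the enzymes and 0.10 in them. With CPM not scaled by TMM, the median over all genes tested was 0.17 for the replicate difference and 0.24 for 7.5 minus 5 µM. The members' medians were then 1.16 and −0.79.

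CHIR99021 concentration gave another pattern. Most members were lowest at 7.5 µM: this was the lowest of the 4 concentrations in both replicate series for 25 members, 13 of them enzymes, against 19.2% of all genes tested. It was the highest in both series for none, against 4395 of the 18709 genes tested. Without the replicate number in the model, no member passed at 7.5 against 5 µM (8 at an unadjusted p under 0.05; DESeq2 called 1) or at 7.5 against 0.7 µM (3 at an unadjusted p under 0.05; DESeq2 called 2). With the replicate number as a block, 17 members were lower at 7.5 than at 5 µM and none was higher (edgeR), against 3.3% of all genes tested called lower and 3.22% higher. Their median log2 difference over all 39 was −1.04, with 0.06 for all genes tested. At 7.5 against 0.7 µM, 8 members were lower in the blocked fit and none was higher, against 4.87% called lower and 5.64% higher. All 8 were among the 17. In such bulk libraries, fewer cells of a type and less RNA per cell cannot be told apart.

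**Figure D2:**
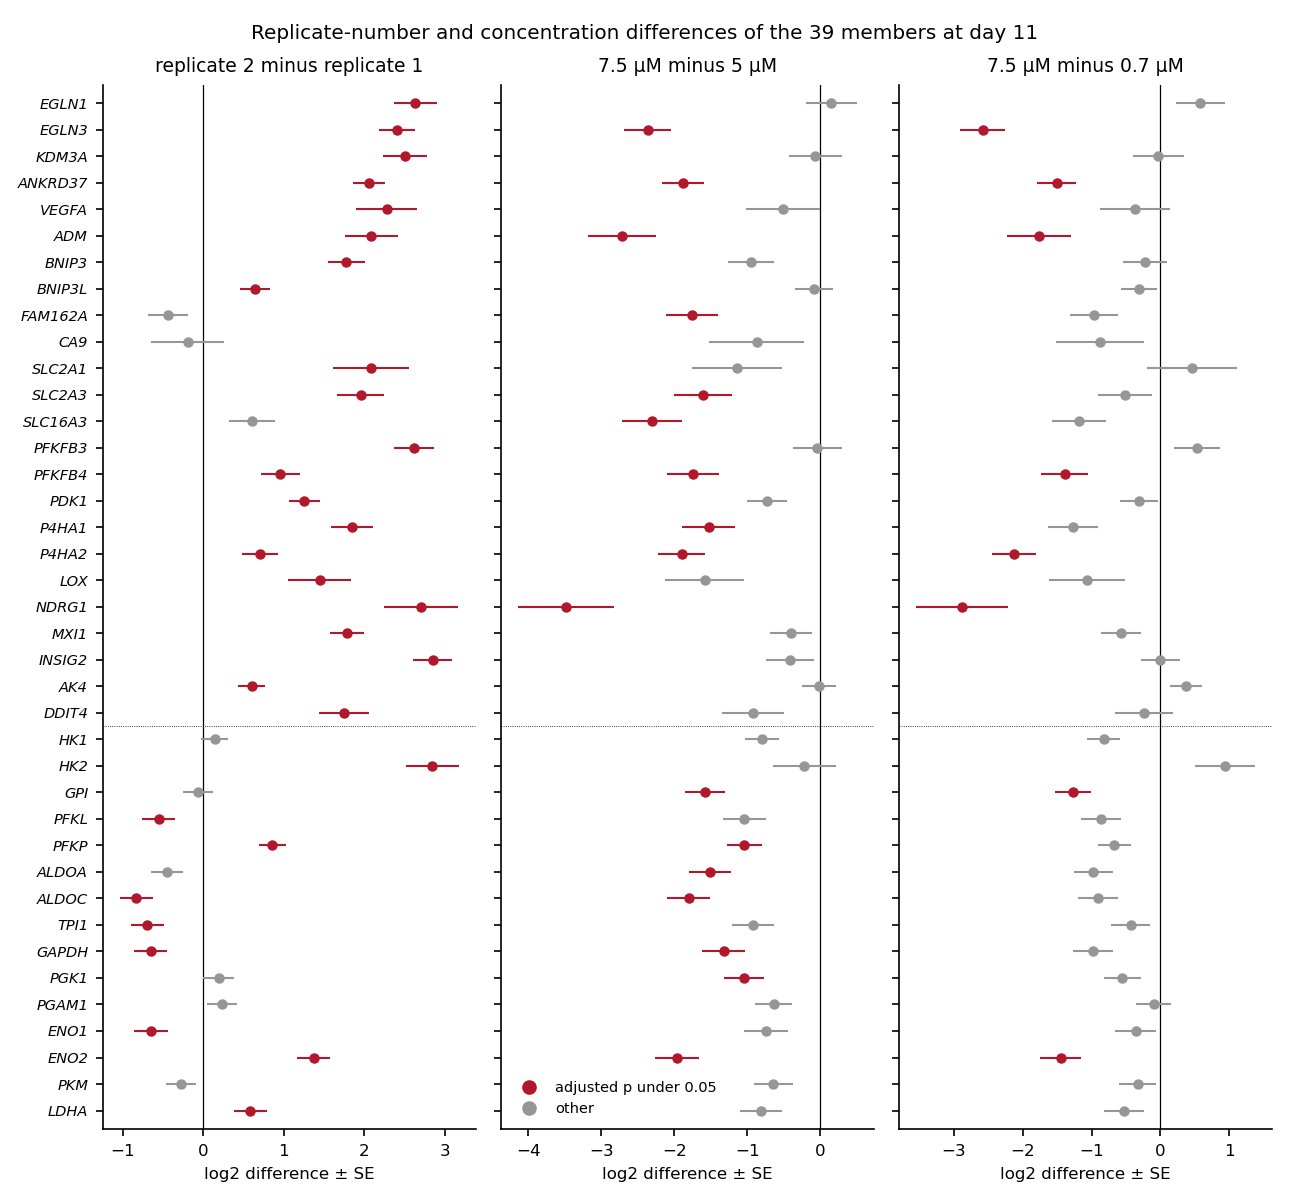
Estimated log2 differences of the 39 members at day 11, with standard errors: replicate 2 minus replicate 1 (left), 7.5 minus 5 µM (middle) and 7.5 minus 0.7 µM (right), the last 2 with the replicate number as a block. Red points have an edgeR adjusted p under 0.05, and the enzymes are listed below the dotted line. In the left panel red points lie on both sides of 0 among the enzymes and only above 0 among the other members. The middle panel has 38 of 39 points below 0.

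Values below are CPM in single libraries, and each run of 4 values is in rising order of CHIR99021 concentration. Differences are log2 values with their standard error: for replicate 2 against 1 from the fit on concentration and replicate number, and for concentrations from the same blocked fit.

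Among the oxygen sensors and chromatin regulators, all 4 members were higher in replicate 2, and 2 of the 4 were lower at 7.5 µM. EGLN3, a prolyl hydroxylase that HIF itself induces, was at 10.3, 11.5, 6.07 and 1.48 CPM in replicate 1 and 42.6, 49.7, 50.2 and 8.28 CPM in replicate 2. It fell at 7.5 µM in both series, and the 7.5 µM library of replicate 2 lay among the replicate 1 libraries of the other concentrations. Its difference was −2.36 ± 0.32 at 7.5 against 5 µM (edgeR adjusted p = 0.0118) and −2.58 ± 0.32 against 0.7 µM (edgeR adjusted p = 0.00167). EGLN1, the main hydroxylase of HIF alpha, was at 7.81, 16.5, 15.3 and 21.8 CPM in replicate 1 and 93.1, 92.4, 98.4 and 79.1 CPM in replicate 2. The series did not overlap, and EGLN1 showed no such drop: its replicate difference was 2.64 ± 0.26 (edgeR adjusted p = 0.000294) and its 7.5 against 5 µM difference 0.15 ± 0.35 (edgeR adjusted p = 0.811). ANKRD37, an ankyrin-repeat HIF target, was at 5.47, 6.67, 7.23 and 1.86 CPM in replicate 1 and 21.5, 32.3, 27.6 and 7.82 CPM in replicate 2. Both series fell at the highest concentration, by 1.88 on the log2 scale against 5 µM (edgeR adjusted p = 0.0127). The histone demethylase KDM3A was at 40.5 to 74.2 CPM in replicate 1 and 219.7 to 424 CPM in replicate 2. Its 7.5 against 5 µM difference was −0.07 ± 0.36 (edgeR adjusted p = 0.919).

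The secreted signals were both higher in replicate 2, and ADM was lower at 7.5 µM. VEGFA, the main angiogenic factor of the response, was at 40.5, 65.2, 49.6 and 64.4 CPM in replicate 1 and 323, 432, 332 and 90.7 CPM in replicate 2. Replicate 1 stayed near the hPSC libraries (56.1 and 48.3 CPM) at every concentration, and the drop at 7.5 µM appeared in replicate 2. The replicate difference was 2.28 ± 0.38 (edgeR adjusted p = 0.00105). ADM, a vasodilator peptide, was at 8.31, 42.5, 31.5 and 6.12 CPM in replicate 1 and 97.2, 137, 127 and 14.1 CPM in replicate 2. It was lower at 7.5 µM than at 3 or 5 µM in both series, with a difference of −2.71 ± 0.47 against 5 µM (edgeR adjusted p = 0.019) and −1.76 ± 0.47 against 0.7 µM (edgeR adjusted p = 0.0398). Against 0.7 µM, the log2 difference of ADM was −0.41 within replicate 1 and −2.74 within replicate 2.

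Of the mitochondrial members, both mitophagy receptors were higher in replicate 2. BNIP3 was at 19.7, 56.9, 50.0 and 20.7 CPM in replicate 1 and 113, 136, 128 and 83.2 CPM in replicate 2, without overlap. Its replicate difference was 1.78 ± 0.23 (edgeR adjusted p = 0.000504), and it did not pass at 7.5 against 5 µM (−0.95 ± 0.32, edgeR adjusted p = 0.0894). Pseudogene entries named for BNIP3 reached 34.3% of its level in one library, so reads could be split between copies. BNIP3L had a smaller replicate difference of 0.65 ± 0.19 (edgeR adjusted p = 0.0137), with levels of 112 to 139 CPM in replicate 1 and 152 to 249.7 CPM in replicate 2. FAM162A, a mitochondrial protein induced by HIF, went with the enzymes: 89.4 to 520.0 CPM in replicate 1 and 106 to 243 CPM in replicate 2, and −1.75 ± 0.36 at 7.5 against 5 µM (edgeR adjusted p = 0.0281).

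Both glucose transporters were higher in replicate 2, and SLC2A3 and SLC16A3 were lower at 7.5 than at 5 µM. SLC2A1, the basal glucose transporter GLUT1, was at 64.6, 549.9, 593 and 348 CPM in replicate 1 and 1206, 2066, 1982 and 566 CPM in replicate 2. The 0.7 µM library of replicate 1 was the lowest of all, and 7.5 µM of replicate 2 lay below 5 µM of replicate 1. Its replicate difference was 2.09 ± 0.47 (edgeR adjusted p = 0.00419). SLC2A3, the high-affinity neuronal glucose transporter GLUT3, was at 187, 901, 747 and 224 CPM in replicate 1 and 1641, 2399, 2141 and 786 CPM in replicate 2. It was higher in replicate 2 by 1.96 ± 0.29 (edgeR adjusted p = 0.000697) and lower at 7.5 than at 5 µM (−1.60 ± 0.40, edgeR adjusted p = 0.0448). SLC16A3, the lactate exporter MCT4, was at 71.5, 283, 168 and 21.9 CPM in replicate 1 and 118, 211, 240.1 and 66.8 CPM in replicate 2. Here the series overlapped and the drop at 7.5 µM was common to both, with −2.30 ± 0.41 against 5 µM (edgeR adjusted p = 0.0198). CA9, a cell-surface carbonic anhydrase often read as a hypoxia marker, stayed at 0.597, 0.494, 0.405 and 0.191 CPM in replicate 1 and 0.312, 0.392, 0.443 and 0.272 CPM in replicate 2. It was 0.276 and 0.544 CPM in hPSCs, from 7 to 16 counts per library, so it was near the detection limit in all 10 libraries.

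The glycolytic enzymes are given in the order of the pathway. HK1 and HK2 trap glucose by phosphorylation. HK1 was at 158, 195, 141 and 81.6 CPM in replicate 1 and 161, 189.7, 175 and 99.3 CPM in replicate 2, nearly equal between the series, and it did not pass at 7.5 against 5 µM (−0.80 ± 0.24, edgeR adjusted p = 0.0644). HK2, the inducible form, was at 13.5, 71.3, 51.7 and 59.3 CPM in replicate 1 and 245, 377, 395 and 233 CPM in replicate 2. Its series did not overlap, with a replicate difference of 2.85 ± 0.33 (edgeR adjusted p = 0.000386) and −0.22 ± 0.42 at 7.5 against 5 µM (edgeR adjusted p = 0.768). GPI spanned 274 to 1389 CPM in replicate 1 and 295 to 1067 CPM in replicate 2. It fell at 7.5 µM by 1.58 against 5 µM (edgeR adjusted p = 0.0174) and by 1.27 against 0.7 µM (edgeR adjusted p = 0.0155), on the log2 scale.

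The phosphofructokinases commit sugar to glycolysis. PFKP, the platelet form, was at 82.6, 116, 106 and 46.4 CPM in replicate 1 and 146, 178, 191 and 102 CPM in replicate 2. It was higher in replicate 2 (0.86 ± 0.17, edgeR adjusted p = 0.00218) and lower at 7.5 than 5 µM (−1.04 ± 0.24, edgeR adjusted p = 0.0378). PFKL, the liver form, was 103 to 283 CPM in replicate 1 and 87.6 to 189 CPM in replicate 2. It was lower in replicate 2 (−0.55 ± 0.21, edgeR adjusted p = 0.0428), the smallest difference among the 5 enzymes lower there.

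Among the aldolases and triose enzymes, ALDOC, TPI1 and GAPDH were lower in replicate 2, and ALDOA, ALDOC and GAPDH were lower at 7.5 than at 5 µM. ALDOA was at 1652, 3250.0, 2224 and 717 CPM in replicate 1 and 1137, 1809.7, 1783 and 669 CPM in replicate 2. It was highest at 3 µM in both series and lower at 7.5 than at 5 µM (−1.51 ± 0.29, edgeR adjusted p = 0.0235). ALDOC, the brain form, was at 53.0, 117, 106 and 22.8 CPM in replicate 1 and 31.0, 46.6, 53.3 and 19.6 CPM in replicate 2. It was lower in replicate 2 (−0.83 ± 0.21, edgeR adjusted p = 0.00663) and at 7.5 µM (−1.80 ± 0.30, edgeR adjusted p = 0.0168). TPI1 ranged over 506 to 1432 CPM in replicate 1 and 464 to 711 CPM in replicate 2, with pseudogene entries reaching 25.4% of its level. GAPDH was at 7209, 13128, 9996 and 3621 CPM in replicate 1 and 5098, 7047, 5971 and 2610.1 CPM in replicate 2. Replicate 1 was above replicate 2 at each concentration, and both series were lowest at 7.5 µM. Its replicate difference was −0.65 ± 0.21 (edgeR adjusted p = 0.0223) and its 7.5 against 5 µM difference −1.32 ± 0.30 (edgeR adjusted p = 0.0358).

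Of the later enzymes, PGK1 and ENO2 were lower at 7.5 than at 5 µM, and the enolases differed between replicate numbers in opposite directions. PGK1 was at 1046, 1861, 1774 and 792 CPM in replicate 1 and 1511, 1833, 1794 and 939 CPM in replicate 2. The series lay close together, and PGK1 was lower at 7.5 than at 5 µM (−1.05 ± 0.27, edgeR adjusted p = 0.0491). PGAM1 ranged over 60.1 to 117 CPM in replicate 1 and 77.7 to 116 CPM in replicate 2, and passed neither test. ENO1, the common enolase, was at 3709, 5561, 4739 and 2347 CPM in replicate 1 and 2236, 2773, 2968 and 2087 CPM in replicate 2. It was lower in replicate 2 (−0.65 ± 0.21, edgeR adjusted p = 0.026). ENO2, the enolase of neurons and also a HIF target, was at 158, 453, 306 and 81.9 CPM in replicate 1 and 649, 968, 731 and 177 CPM in replicate 2. It had the opposite replicate difference (1.37 ± 0.21, edgeR adjusted p = 0.000762) and one of the steeper drops, −1.97 ± 0.30 at 7.5 against 5 µM (edgeR adjusted p = 0.0136).

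Pyruvate is formed by PKM and turned to lactate by LDHA. PKM was at 2154, 3258, 2764 and 1675 CPM in replicate 1 and 1859, 2381, 2254 and 1508 CPM in replicate 2, and passed neither test. LDHA was at 1081, 1581, 1526 and 682 CPM in replicate 1 and 1831, 1891, 1914 and 1366 CPM in replicate 2. It was higher in replicate 2 (0.59 ± 0.21, edgeR adjusted p = 0.0327) and did not pass at 7.5 against 5 µM (−0.81 ± 0.29, edgeR adjusted p = 0.104).

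The regulators of flux were higher in replicate 2 throughout. PFKFB3, which makes the activator of phosphofructokinase, was at 18.0, 29.3, 19.4 and 32.8 CPM in replicate 1 and 109, 189, 205 and 116 CPM in replicate 2. The series were far apart (2.62 ± 0.25, edgeR adjusted p = 0.000265), with −0.04 ± 0.34 at 7.5 against 5 µM (edgeR adjusted p = 0.949). PFKFB4, its paralog, was at 127, 367, 210.3 and 46.7 CPM in replicate 1 and 346, 400.0, 349.8 and 135 CPM in replicate 2. This form did fall at 7.5 µM, by 1.74 against 5 µM (edgeR adjusted p = 0.0266) on the log2 scale. PDK1, which shuts pyruvate dehydrogenase, was at 48.0, 84.8, 86.5 and 42.9 CPM in replicate 1 and 159, 161, 163 and 119 CPM in replicate 2. Its replicate difference was 1.26 ± 0.20 (edgeR adjusted p = 0.000821), and its 7.5 against 5 µM difference −0.74 ± 0.27 did not pass (edgeR adjusted p = 0.115).

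The 3 collagen-modifying members were higher in replicate 2, and both prolyl hydroxylase subunits were lower at 7.5 µM. P4HA2, a collagen prolyl hydroxylase subunit, was at 70.8, 153, 94.4 and 23.2 CPM in replicate 1 and 205, 194, 121 and 35.7 CPM in replicate 2. It was lower at 7.5 µM in both series, by 2.12 against 0.7 µM (edgeR adjusted p = 0.00417) on the log2 scale. P4HA1 spanned 92.5 to 398 CPM in replicate 1 and 320.1 to 1057 CPM in replicate 2 and was also lower at 7.5 than at 5 µM (−1.53 ± 0.37, edgeR adjusted p = 0.0409). LOX, which crosslinks collagen, was at 1.84, 7.41, 7.11 and 2.68 CPM in replicate 1 and 16.6, 21.1, 13.1 and 3.60 CPM in replicate 2. It was higher in replicate 2 (1.45 ± 0.39, edgeR adjusted p = 0.0102) and did not pass at 7.5 against 5 µM (−1.58 ± 0.54, edgeR adjusted p = 0.0926).

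Among the remaining members, NDRG1 had the steepest drop. NDRG1, a stress-responsive growth regulator, was at 6.47, 50.5, 26.8 and 3.58 CPM in replicate 1 and 178, 254, 166 and 8.45 CPM in replicate 2. Both 7.5 µM libraries were at 8.45 CPM or less, although replicate 2 was at 166 CPM or more at the other concentrations. The difference was −3.48 ± 0.66 against 5 µM (edgeR adjusted p = 0.0229) and −2.88 ± 0.67 against 0.7 µM (edgeR adjusted p = 0.0239). Against 0.7 µM, the log2 difference of NDRG1 was −0.77 within replicate 1 and −4.32 within replicate 2, so it lay mostly in replicate 2. INSIG2 was at 7.36, 15.4, 12.4 and 12.4 CPM in replicate 1 and 88.4, 98.5, 101 and 54.7 CPM in replicate 2, with a replicate difference of 2.85 ± 0.25 (edgeR adjusted p = 0.000265). DDIT4, an inhibitor of mTORC1 known as REDD1, was at 136, 159, 245 and 187 CPM in replicate 1 and 588, 942, 858 and 258 CPM in replicate 2. It was higher in replicate 2 (1.75 ± 0.31, edgeR adjusted p = 0.00135). MXI1, an antagonist of MYC, differed by 1.78 ± 0.21 between replicate numbers (edgeR adjusted p = 0.000401). AK4, a mitochondrial adenylate kinase, differed by 0.60 ± 0.17 (edgeR adjusted p = 0.0109), and neither passed at 7.5 against 5 µM.

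**Figure D3:**
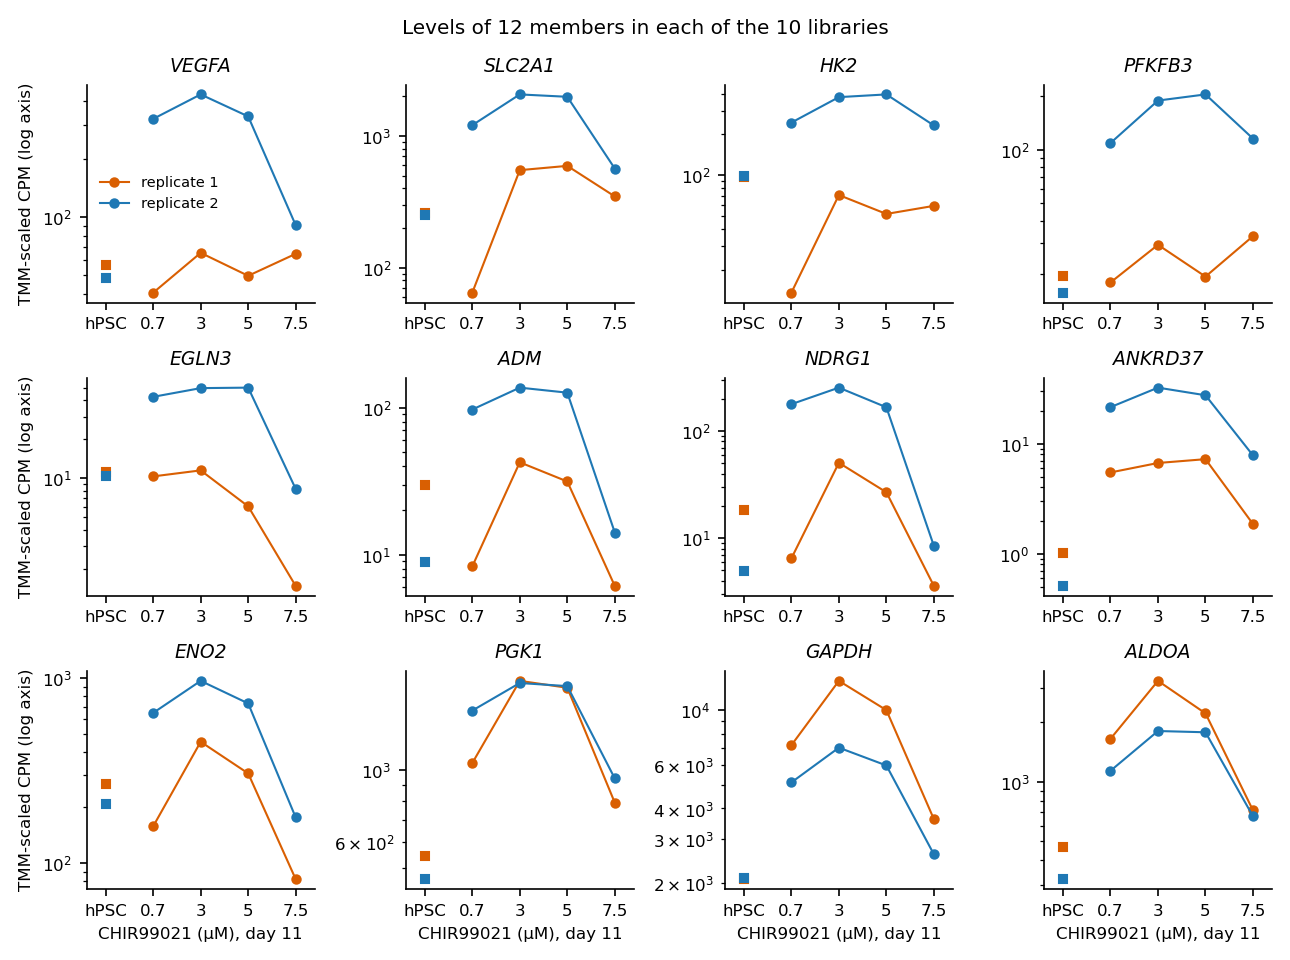
Levels of 12 members in the 10 libraries, in TMM-scaled CPM on log axes whose ranges differ between panels: hPSC (squares) and day 11 at 4 CHIR99021 concentrations (circles), replicate 1 in orange and replicate 2 in blue. The 2 lines are far apart for VEGFA, HK2 and PFKFB3, close for PGK1 and in reversed order for GAPDH, and for NDRG1 both end at 8.45 CPM or less at 7.5 µM.

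Differences among the lower concentrations did not pass the test. At 3 against 0.7 µM, 37 of the 39 estimates were above 0 in the blocked fit, with a median of 0.55. None was called (16 at an unadjusted p under 0.05; DESeq2 called 1), against 0.0214% of all genes tested called. At 5 against 0.7 µM, 33 were above 0, with a median of 0.41, and none passed (7 at an unadjusted p under 0.05; DESeq2 called 0), against 1.13% of all genes. These comparisons share the 0.7 µM libraries. The slope per doubling of CHIR99021 called no member with the block (0 at an unadjusted p under 0.05; DESeq2 called 0), while 1.19% of all genes tested passed. Within replicate 1 the members' median log2 difference from 0.7 µM was 0.86 at 3 µM, 0.57 at 5 µM and −0.64 at 7.5 µM. In replicate 2 it was 0.31, 0.23 and −0.77.

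The drop at 7.5 µM rested on few libraries. Both 7.5 µM libraries were below both 5 µM libraries in 23 of the 39 members, against 18.2% of all genes tested. In the blocked fit, the 17 calls at 7.5 against 5 µM fell to 1, EGLN3, without replicate 1 at 5 µM (0.151% of all genes tested called) and to 0 without replicate 2 at 5 µM (0.0258%). The 8 calls against 0.7 µM became 5 without replicate 2 at 0.7 µM (3 lower, 2 higher), with 4.24% of all genes tested called. They became 19 without replicate 2 at 7.5 µM (16 lower, 3 higher), where 29.1% of all genes tested were called. At 7.5 against 0.7 µM, 14 of 39 members were above 0 in replicate 1 and 2 in replicate 2 (53.2% and 52.0% of all genes tested). In replicate 1 that median was 0.02 outside the enzymes and −0.83 in them. At 7.5 against 5 µM, 7 of 39 were above 0 in replicate 1, with a median of −1.16 and 53.5% of all genes above 0. Replicate 2 holds none of the 3 libraries of high ribosomal protein share. Within it, 38 of 39 members were lower at 7.5 than at 5 µM. The median there was −1.10, with 50.2% of all genes above 0. In a fit without those 3 libraries, 15 members were called lower at 7.5 than at 5 µM (2.37% of all genes tested called) and 15 lower than at 0.7 µM (7.0%). That fit has replicate 2 alone at 0.7, 3 and 5 µM, both replicates at 7.5 µM and no block, so replicate number and concentration cannot be told apart in it, and its spread comes from the 7.5 µM pair.

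The difference between replicate numbers was itself smaller at 7.5 µM for a pair of members. The replicate difference at 7.5 µM against that at the other 3 concentrations was −2.32 ± 0.26 for VEGFA (edgeR adjusted p = 0.0267) and −1.69 ± 0.34 for DDIT4 (edgeR adjusted p = 0.0491), in log2 units. No other member passed, and 2.59% of all genes tested did. Replicate 1 at those 3 concentrations is the set of 3 libraries of high ribosomal protein share (14.38% to 18.49%, against 6.68% in replicate 1 at 7.5 µM), so the contrast and that library difference cannot be told apart. VEGFA was 2.98, 2.72 and 2.73 higher in replicate 2 at 0.7, 3 and 5 µM and 0.49 higher at 7.5 µM. For DDIT4 the same values were 2.11, 2.56, 1.80 and 0.46. A linear change of the replicate difference with log2 concentration called no member (2 at an unadjusted p under 0.05; DESeq2 called 0). Over all members, the median replicate difference was 1.53 at 0.7 µM, 0.62 at 3 µM, 0.83 at 5 µM and 0.72 at 7.5 µM.

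Other genes of the pathway gave the following counts. Over all genes tested, 28.7% were higher and 26.9% lower in replicate 2. At 7.5 against 5 µM with the block, 3.22% were higher and 3.3% lower. Of 8 HIF regulators that are not members, 5 were higher in replicate 2 and 1 was lower. HIF1A, the oxygen-regulated alpha subunit, was at 71.5, 71.2, 59.3 and 158 CPM in replicate 1 and 340.1, 299.7, 227 and 219 CPM in replicate 2 (1.70 ± 0.28, edgeR adjusted p = 0.00107). Its partner ARNT was higher there (1.35 ± 0.22, edgeR adjusted p = 0.001). EGLN2, the third hydroxylase, was lower (−0.96 ± 0.19, edgeR adjusted p = 0.00251). At 7.5 against 5 µM with the block, ARNT2, a neural paralog of ARNT, and VHL were higher, by 1.20 ± 0.29 and 1.28 ± 0.32, and HIF1A did not pass (0.80 ± 0.39, edgeR adjusted p = 0.206). Of 27 other HIF targets, 18 were higher and 2 were lower in replicate 2, and 5 were lower and none was higher at 7.5 than at 5 µM. BHLHE40, a transcriptional repressor, had the highest value among those in replicate 2, 4.33 ± 0.71. COX4I2, a hypoxia-induced cytochrome oxidase subunit, had the lowest at 7.5 against 5 µM, −3.88 ± 0.69. Of 19 tested genes of other glycolysis and pyruvate steps, 3 were higher and 4 lower in replicate 2, and 1 (PDK3, a pyruvate dehydrogenase kinase) was lower at 7.5 than at 5 µM.

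Counts for other gene groups are read against the shares over all genes given above. Of 28 genes of oxidative phosphorylation and the TCA cycle, 15 were lower and 3 higher in replicate 2, and 1 was lower at 7.5 than at 5 µM. Of 12 genes of the integrated stress response, 5 were lower and 1 was higher in replicate 2. Of 8 cell cycle markers, 5 were higher and none was lower at 7.5 than at 5 µM, and 4 were lower and 1 higher in replicate 2. Their summed level was 529 and 669 CPM at 0.7 µM, 488 and 432 at 3 µM, 688 and 576 at 5 µM and 1269 and 1426 at 7.5 µM. Of 5 midbrain floor plate markers, 2 were lower in replicate 2 and 1 was higher at 7.5 than at 5 µM, with sums of 213 to 619 CPM at day 11. Of 4 tested neuron markers, 2 were higher in replicate 2, with a median of 0.96. The 5 neuron markers in the tables summed to 62.9, 50.4, 26.2 and 30.1 CPM in replicate 1 and 143, 84.6, 59.4 and 65.1 CPM in replicate 2. KDR, a VEGFA receptor and endothelial marker, was at 0.448, 0.148, 0.578 and 0.410 CPM in replicate 1 and 34.2, 15.0, 7.94 and 4.47 CPM in replicate 2. Mesenchymal markers summed to 14.2 to 116 CPM. Gene length went with the replicate difference as well: across 18206 genes, which are not independent replicates, Spearman's rho between exon length and the replicate difference was 0.41. Relative to a smooth trend over length the members' median was 0.68 in place of 0.96, with 29 of 39 above 0 both ways. The part of these groups, of library composition and of length in the results was not tested.

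Day 11 cultures had higher levels than undifferentiated cells of the lactate exporter SLC16A3, of 7 glycolytic enzymes and of ANKRD37, PFKFB4, P4HA2 and FAM162A. With the mean of the 4 arms against hPSCs and no block, 12 members were higher and 1 was lower (edgeR, 19672 genes tested), against 7.85% of all genes called higher and 13.3% lower. With the replicate number as a block within day 11, 28 were higher and 2 lower, against 25.0% and 29.6%. All 8 day 11 libraries lay above both hPSC libraries in 17 members (17.6% of all genes tested) and below both in 2, HK1 and AK4 (20.8%). SLC16A3 went from 5.18 and 1.02 CPM in hPSCs to 21.9 to 283 CPM at day 11, a difference of 5.27 ± 0.88 (edgeR adjusted p = 0.00492). ANKRD37 was at 1.02 and 0.508 CPM in hPSCs and differed by 3.98 ± 1.14 (edgeR adjusted p = 0.0422). PFKFB4, at 19.6 and 11.0 CPM in hPSCs, differed by 3.84 ± 0.68 (edgeR adjusted p = 0.00632). P4HA2, at 13.7 and 10.4 CPM there, differed by 2.96 ± 0.51 (edgeR adjusted p = 0.00556).

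Among the enzymes, LDHA had the largest rise over hPSCs, where it was at 345 and 263 CPM (2.26 ± 0.42, edgeR adjusted p = 0.00791). ALDOA, at 465 and 321 CPM in hPSCs, differed by 1.92 ± 0.38 (edgeR adjusted p = 0.00995). GAPDH was at 2071 and 2094 CPM in hPSCs and differed by 1.59 ± 0.42 (edgeR adjusted p = 0.0301). PGK1, at 546 and 464 CPM, differed by 1.45 ± 0.30 (edgeR adjusted p = 0.0111), and PKM, at 1087 and 1057 CPM, by 1.02 ± 0.29 (edgeR adjusted p = 0.0408). GPI, PFKL and FAM162A also rose, by 1.48 ± 0.28, 1.76 ± 0.40 and 1.99 ± 0.42. AK4 was the member that fell, by 1.49 (edgeR adjusted p = 0.0104), from 228 and 249.6 CPM in hPSCs to 52.0 to 113 CPM at day 11.

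HK2, EGLN1, VEGFA and SLC2A1, with a wide gap between the replicate series, did not pass against hPSCs without a block. HK2 was at 96.7 and 98.6 CPM in hPSCs (0.85 ± 1.18, edgeR adjusted p = 0.649), and EGLN1 at 24.1 and 19.0 CPM (1.30 ± 1.13, edgeR adjusted p = 0.453). VEGFA differed by 1.62 ± 1.06 (edgeR adjusted p = 0.314), and SLC2A1, at 259 and 249 CPM, by 1.72 ± 1.05 (edgeR adjusted p = 0.285). With the block the values were 0.26 ± 0.31 (edgeR adjusted p = 0.498), 0.78 ± 0.27 (edgeR adjusted p = 0.0299), 1.25 ± 0.39 (edgeR adjusted p = 0.0179) and 1.41 ± 0.48 (edgeR adjusted p = 0.0268), in that order. The hPSC levels of other members named above were as follows. SLC2A3 was at 883 and 1009.9 CPM, ENO1 at 1795 and 1637 CPM, ENO2 at 269.5 and 208 CPM, PFKP at 66.3 and 61.6 CPM and ALDOC at 48.8 and 51.8 CPM. HK1 was at 199 and 284 CPM, DDIT4 at 60.4 and 37.2 CPM, PDK1 at 70.6 and 50.9 CPM, BNIP3 at 35.2 and 22.8 CPM and PFKFB3 at 19.6 and 15.8 CPM. EGLN3 was at 11.2 and 10.4 CPM, ADM at 29.9 and 8.89 CPM, NDRG1 at 18.4 and 4.93 CPM, INSIG2 at 25.7 and 17.4 CPM and LOX at 1.46 and 0.907 CPM.

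**Figure D4:**
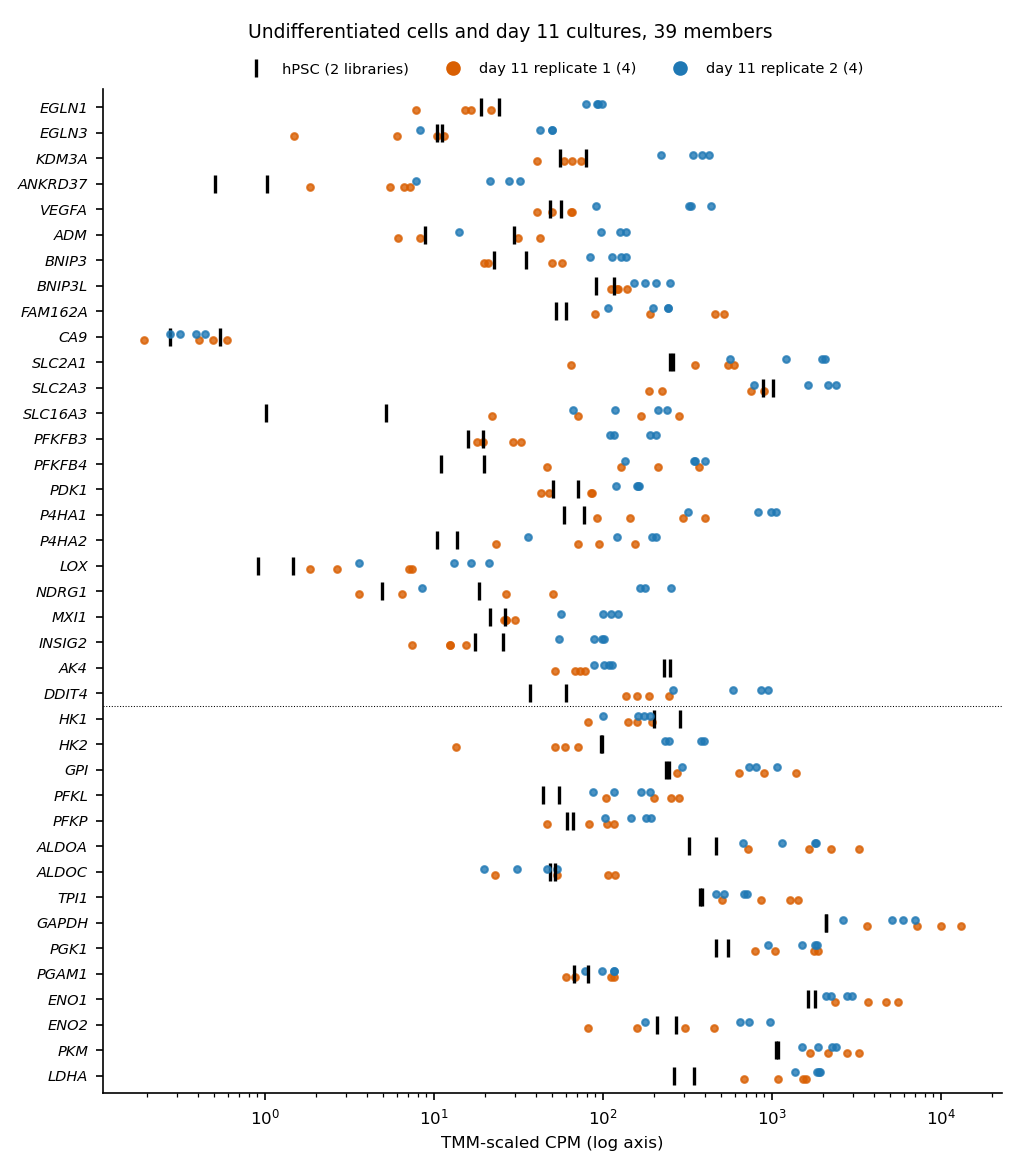
Levels of the 39 members in TMM-scaled CPM (log axis) in the 2 hPSC libraries (black bars) and in the day 11 libraries of replicate 1 (orange, 4 concentrations) and replicate 2 (blue, 4 concentrations). All day 11 points lie to the right of both bars for 17 members, among them SLC16A3, LDHA and GAPDH, while for HK2 the bars lie between the 2 series.

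Against hPSCs the arms were also taken singly. At 0.7 µM, 9 members were higher and 1 was lower without a block, against 11.4% of all genes called in either direction. At 7.5 µM, SLC16A3 was higher (3.83 ± 0.86) and HK1 was lower (−1.42 ± 0.33), against 10.1% of all genes. With the block, 13 members were higher and 6 lower at 7.5 µM, against 16.6% of all genes tested called higher and 18.1% lower. The 6 were SLC2A3, ALDOC, ENO2, EGLN3, HK1 and AK4. The 2 arms were compared with the same hPSC libraries. The calls for the mean of the arms fell from 13 to 1, SLC16A3, without hPSC replicate 1 (6.69% of all genes tested called) or hPSC replicate 2 (5.4%). They rose to 33 without the 3 libraries of high ribosomal protein share, against 40.0% of all genes called, with replicate 2 alone at 0.7, 3 and 5 µM. The hPSC libraries have other codes in their labels than the day 11 libraries, so stage and sample set cannot be told apart.

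On a scale per kb of merged exon length (GENCODE 29), GAPDH had the highest mean level at day 11, 2293 CPM per kb. ENO1 followed with 626, ALDOA with 423, TPI1 with 299, PGK1 with 262, PKM with 260.4 and LDHA with 239. In hPSCs the order on that scale began with GAPDH at 699, ENO1 at 325, SLC2A3 at 154, TPI1 at 141 and PKM at 125 CPM per kb. LOX, at 1.65, and CA9, at 0.233 CPM per kb, were the lowest at day 11. Levels of neighbours in the order such as PGK1 and PKM differed by less than their spread over libraries. In GENCODE 29, exons of 20 members overlap a gene on the other strand and those of 7 a gene on the same strand. The counting is not stated to use strand, so reads of ANKRD37 and UFSP2, SLC16A3 and CSNK1D, FAM162A and WDR5B or TPI1 and SPSB2 may not be separated where they overlap.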

How the data were processed

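RNA of H9 cells was sequenced and read counts per gene were deposited for each library. The authors' deposited values are raw read counts; the submitters' processing notes name STAR 2.4.2a, HTSeq 0.5.3, featureCounts 1.4.2, DESeq2 1.12.4 and hg19. No source used here gives the library kit, strandedness or counting options. Reads in no gene, not unique or not aligned (37.41% to 44.33% of entries) stayed out of library sizes.

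The 39 members, the gene lists and the tests were chosen with earlier results of these data known. Every library's value is given for 22 usual HIF and glycolysis genes and for members among the 5 largest passing differences of a comparison (5 CPM or more in the group where it is higher); the rest are given by range. Counts were fitted with edgeR 4.0.16 (R 4.3.3, limma 3.58.1) by quasi-likelihood, with TMM scaling, the default filter on low counts and Benjamini-Hochberg adjustment at 0.05. The fits covered 18709 genes in the 8 day 11 libraries and 19672 with hPSCs. Replicate numbers were treated as pairing the day 11 arms, since deviations of same-numbered libraries correlated at 0.64 to 0.86 in every pair of arms. They did not pair hPSCs with day 11 (−0.18 to −0.11), so the block is within day 11. Alternatives were DESeq2 1.42.0, its size factors, no filter, the block and leaving out single libraries. Leaving out the 3 libraries of high ribosomal protein share and the trend over gene length were added after seeing the data. The fits were also run on simulated counts with the same spread for every gene and a replicate difference equal at all concentrations. Those settings differ from these data, so that run does not show how the fits behave here. Day 16 and day 30 libraries are in another table and entered no comparison with day 11.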

Additional observations from a re-analysis of the deposited data

Results flagged for a closer look

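VEGFA and DDIT4 had a replicate difference at 7.5 µM that was lower than at the other 3 concentrations by a test of the difference itself, at −2.324 and −1.693 on the log2 scale. Replicate 1 at those 3 concentrations is the set of 3 libraries of high ribosomal protein share, so the contrast and that library difference cannot be told apart. The day 16 and day 30 libraries, which entered none of the comparisons above, held 36 of the 39 members at more than 3 counts in all 4 libraries. Whether those counts reflect the levels of the members was not tested.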

How the results depend on the processing

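Among members called between replicate numbers, in the blocked comparisons of 7.5 with 0.7 and 5 µM and for the mean of day 11 against hPSC, no difference changed direction under the alternatives run, and the cause of each change in a count below was not tested. Counts are members called by edgeR unless DESeq2 is named. Without a block, 0 members were called at 7.5 against 0.7 µM, 2 with DESeq2, 8 with the replicate block and 15 without the 3 libraries of high ribosomal protein share. At 7.5 against 5 µM the same values were 0, 1, 17 and 15. Fits without the 3 libraries have no block and replicate 2 alone at 0.7, 3 and 5 µM, so replicate number and concentration cannot be told apart in them. With the replicate block, 7.5 against 0.7 µM gave 16 by DESeq2, 17 with no filter on low counts and 5 to 19 when single libraries were left out. The blocked count at 7.5 against 5 µM ranged from 0 to 24 over single libraries left out. Blocked 5 against 0.7 µM gave 4 with no filter and 0 to 3 over single libraries. Blocked 3 against 0.7 µM gave 1 by DESeq2, 6 with no filter and 0 to 1 over single libraries. The replicate difference by concentration gave 2 when 7.5 µM was set against the other 3. Day 11 against hPSC gave 30 with the replicate block, 33 without the 3 libraries and 1 to 15 over single libraries. The 0.7 µM arm against hPSC gave 16 by DESeq2, 25 with the block, 25 without the 3 libraries and 0 to 9 over single libraries. The 7.5 µM arm gave 5, 19, 13 and 0 to 3. The 30 calls between replicate numbers ranged from 23 to 32 over single libraries, and 21 of the 30 were called in every one. CA9, at 7 to 16 counts a library, is limited by depth.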

Other observations

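In the later cultures of the 7.5 µM arm, with 5.41 to 6.34 M gene counts a library, both day 30 libraries lay above both day 16 libraries in 10 members and below in 3. Over the 20840 genes with at least 10 counts the shares were 22.7% and 28.7%. ADM and ALDOC were listed at 0 counts in all 4 libraries, and CA9 at 0 or 1. In CPM not scaled by TMM, GAPDH at 71.0 to 290 CPM lay below SLC16A3 at 893 to 1282 CPM in these libraries. The strand counted is not given, so these counts, and the numbers of members above and below, may not reflect the levels of the members. That was not tested.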
